A study of Mus musculus with 12 samples.

Results

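The Toll-like receptors and adaptors examined here were 10 genes chosen by symbol: the receptors Tlr1, Tlr2, Tlr3, Tlr4, Tlr5, Tlr6 and Tlr7, the adaptors Myd88 and Ticam1, and the co-receptor Cd14. They are 10 of the 45563 gene symbols used, and all 10 were listed for every library. RNA was sequenced from oligodendrocyte precursor cells (OPCs), the dividing cells that give rise to myelinating oligodendrocytes, in 12 libraries of 4 groups with 3 libraries each. The cells came from cortices of mouse pups at postnatal day 2 to 5, of strain C57BL/6, both per the labels; the methods name the WT mice C57BL/6J. They were WT or labeled TNFR2 KO (here TNFR2-/-), a germline mutant, so that the label applies to every cell type of a culture. PDGFRα+ cells were enriched with magnetic beads, kept 3 days in vitro with PDGF-AA and FGF2, and given either PBS vehicle (non-stimulated, NS) or TNF, IFNγ and IL1β at 25 ng/mL each for 3 h (stimulated, St). The groups were therefore WT NS, WT St, TNFR2-/- NS and TNFR2-/- St. No microbial ligand of a Toll-like receptor is named as part of the cocktail, and no measurement of such ligands in it is given in the sources used here.

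Toll-like receptors recognize microbial and damage-associated molecules. TLR2 pairs with TLR1 or TLR6 for lipopeptides, TLR4 works with CD14 for lipopolysaccharide, TLR5 binds flagellin, and TLR3 and TLR7 sense double- and single-stranded RNA in endosomes. Apart from TLR3, which signals through TRIF (encoded by Ticam1), these receptors use MYD88, and TLR4 uses both adaptors. Both routes lead to NF-κB and interferon regulatory factors, and MYD88 also carries the signal of the IL-1 receptor. In the brain these receptors are best known from microglia, while TLR3 is also well described in astrocytes.

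Library totals lay between 26886878 and 30335265 read pairs. RNA of Tnfrsf1b, which encodes TNFR2, was higher, not lower, in libraries labeled TNFR2-/- than in WT libraries. WT libraries held between 12 and 24 reads of it without stimulation and between 61 and 145 with it, whereas the counts under the TNFR2-/- label were 213 to 346 (NS) and 282 to 356 (St). The values are per gene, and whether this RNA can make TNFR2 was not tested. Any difference between genotypes below is a difference between libraries as labeled. The summed reads of 7 OPC markers were 137311 to 143250 for WT NS and 129431 to 162838 under TNFR2-/- NS, and lower after stimulation in every culture, at 101834 to 117105 and 93702 to 104699. Of the 7, Olig2 fell in both genotypes, Cspg4 fell and Sox10 rose in WT, and the part of this in the responses below was not tested. Of 17 microglia markers, 14 had at most 9 reads in any library, and these 14 together summed to 8 to 18 reads per library. Fcrls was at 0 throughout, Siglech and Tyrobp had 1 read in a single library each, and Cx3cr1, Aif1, Ptprc, C1qa, C1qb and C1qc never exceeded 2. The other 3 were Sall1 (1627 to 2977 reads), Cd68 (126 to 347) and P2ry12 (16 to 46). Astrocyte markers were abundant and are given beside the genotype results. In such bulk samples fewer cells of a type and less RNA per cell cannot be told apart.

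**Figure D1:**
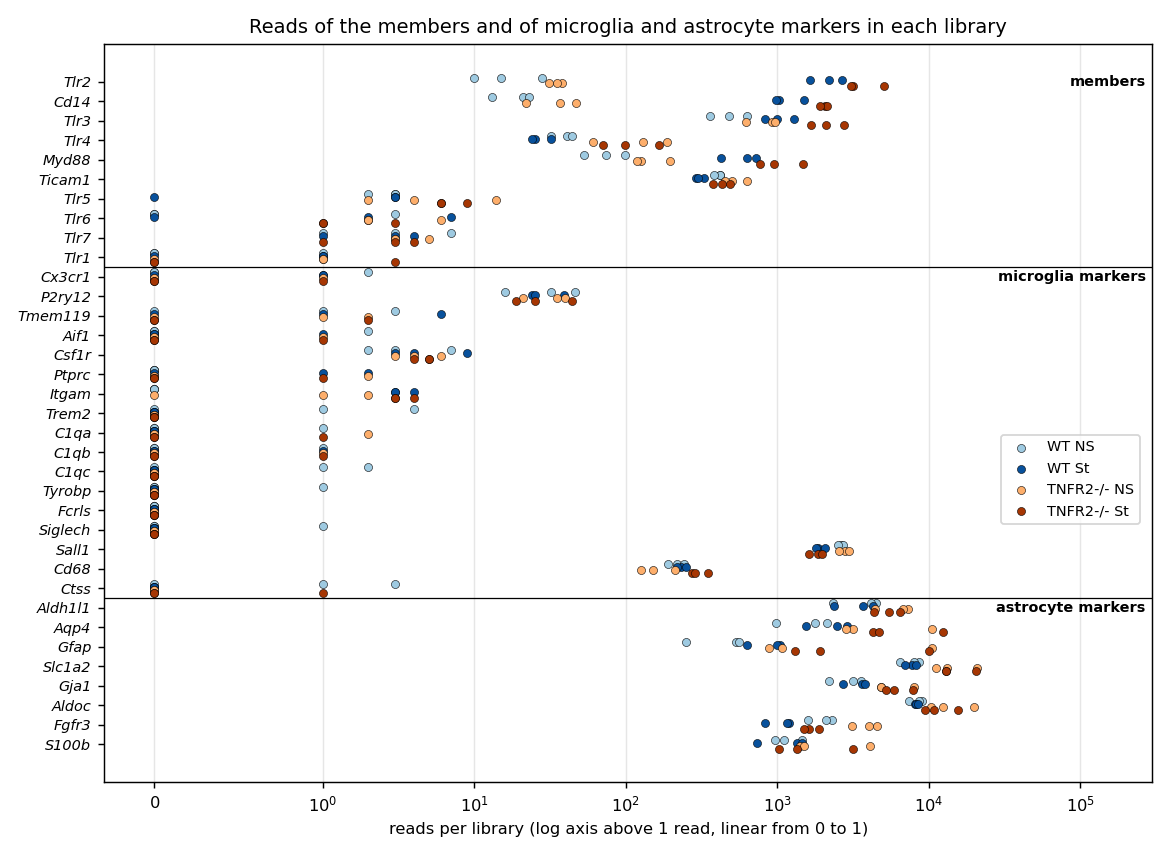
Reads per library (horizontal axis, logarithmic above 1 read) of the 10 members, 17 microglia markers and 8 astrocyte markers, with 1 point per library colored by group. Microglia markers apart from Sall1, Cd68 and P2ry12 stay at or below 9 reads, whereas Cd14 and Tlr2 reach 985 to 5100 reads in St libraries.

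The members fell into those that OPC cultures expressed and those near 0. Levels of different genes were compared as reads per kilobase of annotated exon per 1000000 reads, since the base number that divides each gene's FPKM (fragments per kilobase per 1000000 reads) did not follow exon length. On that scale, Ticam1 led in WT NS with 4.71 ± 0.45 (mean ± SD, n = 3), followed by Tlr3 at 3.23 ± 0.74 and Myd88 at 1.001 ± 0.26, and these 3 did not overlap. Below them came Cd14 at 0.375 ± 0.086, Tlr4 at 0.241 ± 0.025 and Tlr2 at 0.1996 ± 0.0974, where Tlr2 overlapped both others. In WT St the order was turned around. Tlr2 (23.9 ± 5.8) and Cd14 (22.6 ± 5.6) stood first and overlapped each other, Myd88 (7.65 ± 1.97) and Tlr3 (6.63 ± 1.51) came next and overlapped each other, and Ticam1 followed at 3.40 ± 0.25. TNFR2-/- libraries went through the same change of order. In TNFR2-/- NS, Ticam1 (5.86 ± 1.02) and Tlr3 (5.30 ± 1.20) overlapped at the top, ahead of Myd88 at 1.88 ± 0.54. In TNFR2-/- St, Tlr2 (42.7 ± 14.1) and Cd14 (39.6 ± 1.2) overlapped at the top, Tlr3 (14.2 ± 4.0) and Myd88 (14.0 ± 5.3) overlapped below them, and Ticam1 followed at 4.89 ± 0.75. Tlr1, Tlr5, Tlr6 and Tlr7 were below 0.05 on average in all 4 groups.

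**Figure D2:**
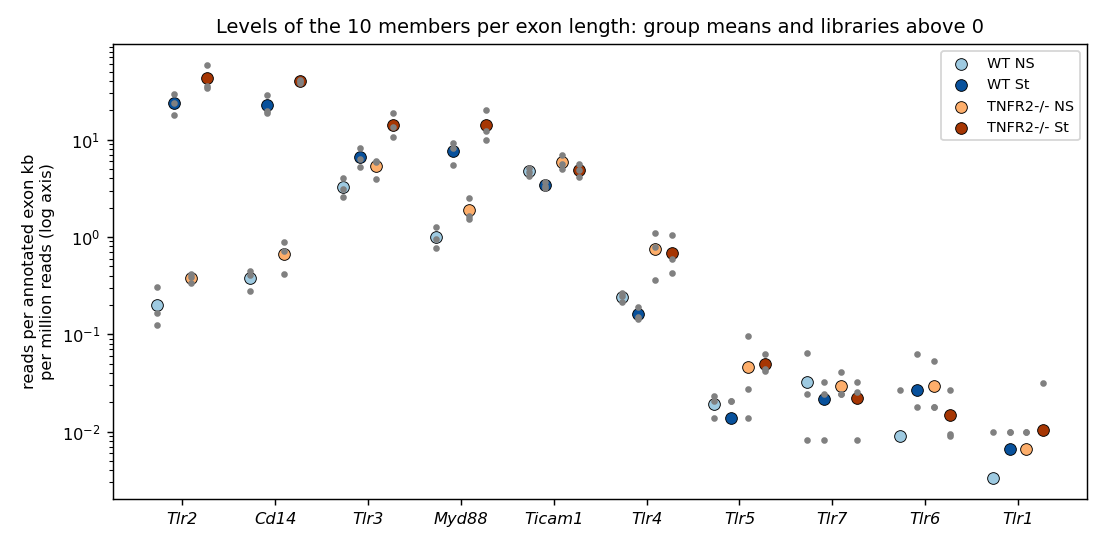
Level of each member (vertical axis, reads per annotated exon kilobase per 1000000 reads, logarithmic) in the 4 groups. Large points are means of 3 libraries and small gray points are libraries above 0; Tlr2 and Cd14 move from below Ticam1 in NS to the top of the order in St.

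Of the 10 members, 6 averaged 0.1 FPKM or more over the 12 libraries, which was the filter on low values, and entered the tests. A gene was called when limma gave an adjusted p of at most 0.05 and a change of at least 1.5-fold on the scale of log2(FPKM + 0.5), in which every log2 difference below is given, ± SE. In WT cells stimulation raised 4 of the 6, Tlr2, Cd14, Myd88 and Tlr3, where 8.54% of all genes tested were called. TNFR2-/- cells had calls for these 4 members too, against 11.7% of all genes. No member was called lower. The median of the 6 differences was 1.73 in WT and 1.99 in TNFR2-/- cells, against −0.05 and −0.11 over all genes tested. Because the added 0.5 shrinks differences of genes near 0, ratios of mean FPKM are given as well.

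Tlr2, the receptor for bacterial lipopeptides, showed the steepest rise by ratio. The gene (ENSMUSG00000027995) lies on chromosome 3, minus strand, from 83836272 to 83841767 (GRCm38). Its promoter window from RefSeq (GRCm38.p6), 250 bases before and 50 after the annotated start, is shown because the gene went from near 0 in NS to the top of the order in St; capitals mark the only match to the κB letters GGGNNNTTCC, 173 to 164 bases before the start.
Tlr2, chr3:83841559-83841858, minus strand: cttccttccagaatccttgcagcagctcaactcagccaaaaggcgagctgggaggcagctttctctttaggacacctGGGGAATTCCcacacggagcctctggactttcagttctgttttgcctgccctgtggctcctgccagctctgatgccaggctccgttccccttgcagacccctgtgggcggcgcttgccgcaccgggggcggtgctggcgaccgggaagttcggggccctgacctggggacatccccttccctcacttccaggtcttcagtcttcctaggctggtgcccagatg

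In WT NS, Tlr2 measured 0.176, 0.0703 and 0.0946 FPKM in replicates 2, 3 and 4, which were 28, 10 and 15 reads. In WT St it measured 16.8, 10.3 and 13.7 FPKM, or 2682, 1634 and 2184 reads. TNFR2-/- NS libraries (replicates 2, 4 and 5) had 0.238, 0.218 and 0.193 FPKM, and TNFR2-/- St libraries had 20.05, 19.3 and 33.6. Every St library lay far above every NS library. The log2 difference was 4.50 ± 0.22 in WT (adjusted p = 1.71e-07) and 5.07 ± 0.22 in TNFR2-/- cells (adjusted p = 6.97e-08), at ratios of mean FPKM of 119.8 and 112. Replicates 2 and 4 occur in both genotypes by number only, but an NS and a St library of 1 genotype that share a number deviated together from their group means, so each such pair is treated as 1 culture. By culture, St over NS ratios ran from 95.6 to 146 in WT and from 84.1 to 174 in TNFR2-/- cells.

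Cd14, the lipopolysaccharide co-receptor that hands ligand to TLR4 and also assists TLR2, rose to a like level. Cd14 (ENSMUSG00000051439) measured 8.04, 5.56 and 8.82 FPKM in WT NS, or 21, 13 and 23 reads. In WT St it measured 578, 392 and 376 FPKM, or 1514, 1025 and 985 reads. TNFR2-/- NS libraries had 14.1, 17.8 and 8.34 FPKM and TNFR2-/- St libraries 789, 812 and 766, the tightest group of the gene relative to its mean. No NS library came near a St library. The log2 difference was 5.81 ± 0.26 in WT (adjusted p = 1.08e-07, ratio of means 60.1) and 5.89 ± 0.26 in TNFR2-/- cells (adjusted p = 8.31e-08, ratio 58.7). Culture ratios ran from 42.7 to 72.0 in WT and from 45.5 to 91.9 in TNFR2-/- cells.

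Myd88, the adaptor shared by most Toll-like receptors and the IL-1 receptor, rose less steeply. The gene (ENSMUSG00000032508) lies on chromosome 9, minus strand, from 119335934 to 119341411, and shares 290 exon bases with Acaa1a on the opposite strand; whether counting used strand is not given in the sources used here. Its window is shown because it holds overlapping matches to the GAS letters TTCNNNGAA (46 to 38 bases before the start) and to the ISRE letters GAAANNGAAA (40 to 31 bases before). The capitals run over both.
Myd88, chr9:119339969-119340268, minus strand: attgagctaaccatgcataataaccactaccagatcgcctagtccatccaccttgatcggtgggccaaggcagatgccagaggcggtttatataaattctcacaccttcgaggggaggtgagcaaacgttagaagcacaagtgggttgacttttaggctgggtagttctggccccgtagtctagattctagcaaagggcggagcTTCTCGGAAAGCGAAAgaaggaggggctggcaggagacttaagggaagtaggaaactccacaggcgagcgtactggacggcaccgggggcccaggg

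Myd88 measured 1.28, 0.763 and 0.956 FPKM in WT NS and 9.29, 5.45 and 8.13 in WT St. In TNFR2-/- NS it measured 1.62, 1.51 and 2.49 FPKM, and in TNFR2-/- St 12.2, 9.79 and 19.9. All St libraries were above all NS libraries, and replicate 5 was the highest TNFR2-/- library in both conditions. The log2 difference was 2.42 ± 0.28 in WT (adjusted p = 1.41e-04, ratio of means 7.64) and 2.57 ± 0.28 in TNFR2-/- cells (adjusted p = 6.94e-05, ratio 7.47). Culture ratios were narrow, from 7.15 to 8.51 in WT and from 6.49 to 8.02 in TNFR2-/- cells.

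Tlr3, the endosomal receptor for double-stranded RNA, was already well expressed in NS cells and about doubled. The gene (ENSMUSG00000031639) lies on chromosome 8, minus strand, from 45395665 to 45411080, and shares 381 exon bases with Gm45542 on the opposite strand. Its window is shown for comparison with that of Tlr2, since it also holds a match to GGGNNNTTCC (capitals, 211 to 202 bases before the start).
Tlr3, chr8:45410331-45410630, minus strand: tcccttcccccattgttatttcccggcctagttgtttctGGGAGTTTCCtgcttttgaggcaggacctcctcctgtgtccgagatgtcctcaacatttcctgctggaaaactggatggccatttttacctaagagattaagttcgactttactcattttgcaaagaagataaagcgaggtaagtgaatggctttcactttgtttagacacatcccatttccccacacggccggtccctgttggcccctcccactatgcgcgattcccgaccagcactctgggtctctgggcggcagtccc

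In WT NS, Tlr3 measured 202, 129 and 155 FPKM, or 630, 360 and 482 reads, and in WT St 414, 265 and 316 FPKM, or 1296, 828 and 990 reads. TNFR2-/- NS libraries had 295, 197 and 305 FPKM and TNFR2-/- St libraries 673, 534 and 931. Within each genotype the NS and St libraries did not overlap. The log2 difference was 1.04 ± 0.25 in WT (adjusted p = 0.0187, ratio of means 2.05) and 1.41 ± 0.25 in TNFR2-/- cells (adjusted p = 0.00237, ratio 2.68). Culture ratios were 2.05 to 2.06 in WT and 2.28 to 3.06 in TNFR2-/- cells. With culture as a replicate block the WT difference had an adjusted p of 1.16e-04. Without the block, the WT call was lost without WT NS replicate 3 (log2 difference 0.88, adjusted p = 0.0750), WT NS replicate 4 (1.02, 0.0575), WT St replicate 2 (0.86, 0.0759) or WT St replicate 4 (1.06, 0.0517), and without both libraries of culture 3 (1.03, 0.0726).

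The RefSeq promoter table held windows for 7 of the 10 members, 9 windows in all, as Tlr1 and Tlr6 have 2 each. It held none for Cd14, Tlr4 and Tlr7, which were therefore not searched. The letters were searched on both strands of 32851 windows of 300 bases, of which 5.56% held GGGNNNTTCC, 3.44% GAAANNGAAA and 8.30% TTCNNNGAA. Among the expressed members with a window, Tlr2 and Tlr3 held the κB letters and Myd88 the other pair, while the window of Ticam1 held none of them. Matches also stood in windows of Tlr1 and Tlr6, which stayed near 0 in every group. A match describes the letters of the window and is not a measured binding site.

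**Figure D3:**
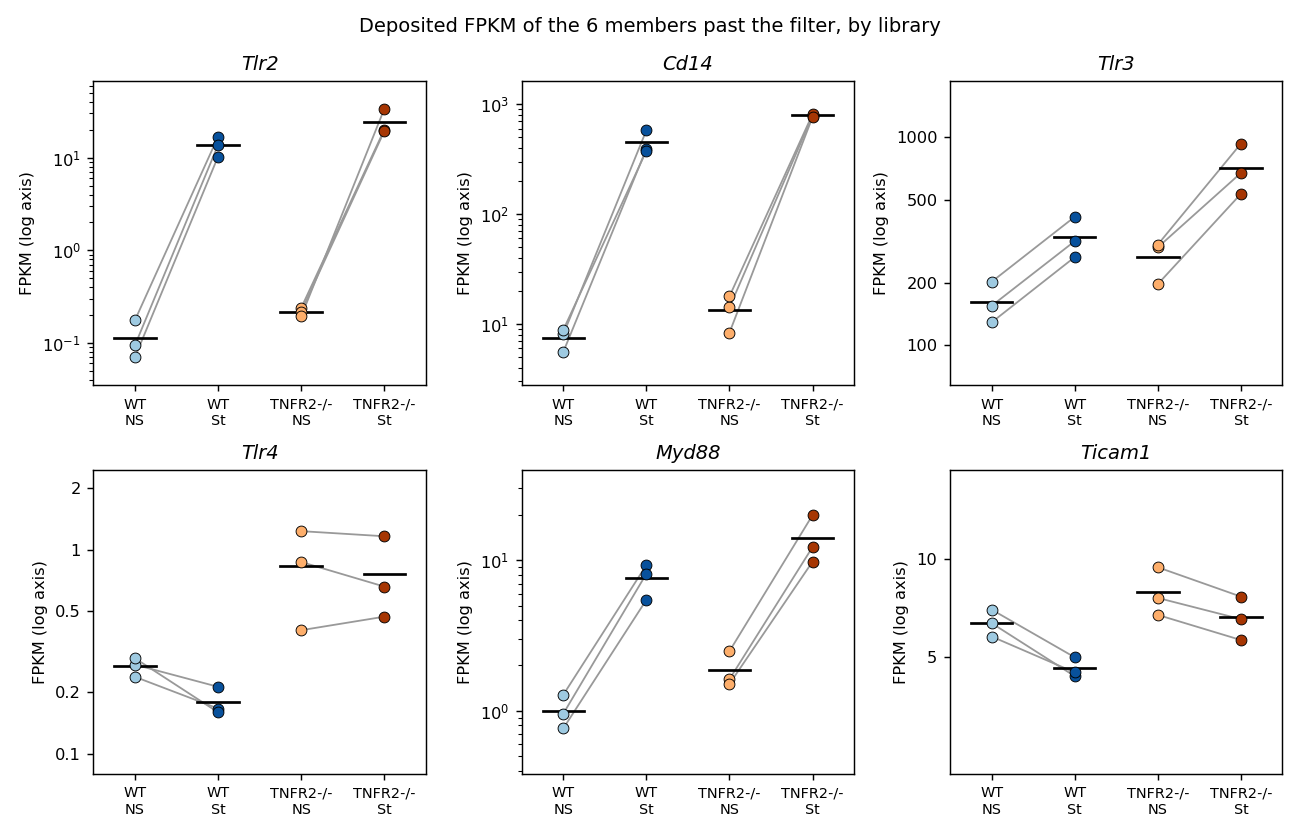
FPKM of the 6 tested members (vertical axes, logarithmic) in each library. Points are libraries, gray lines join NS and St libraries of 1 culture and black bars are group means; Tlr2, Cd14, Myd88 and Tlr3 rise in all 6 cultures, Ticam1 is lower in St in all 6, and Tlr4 has no shared direction in TNFR2-/- cultures.

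Tlr4 and Ticam1 were tested and not called after stimulation. Tlr4, the lipopolysaccharide receptor (ENSMUSG00000039005, chromosome 4, plus strand, 66827584 to 66930284), measured 0.273, 0.238 and 0.293 FPKM in WT NS, or 41, 32 and 44 reads. In WT St it measured 0.212, 0.166 and 0.159 FPKM, or 32, 25 and 24 reads. TNFR2-/- NS libraries had 0.869, 0.402 and 1.23 FPKM and TNFR2-/- St libraries 0.659, 0.469 and 1.16, which overlapped. WT St libraries were all below WT NS libraries, but the log2 difference of −0.18 ± 0.24 (95% interval −0.70 to 0.35) was not called at an adjusted p of 0.711, nor was that of −0.07 ± 0.24 (−0.59 to 0.46) in TNFR2-/- cells (adjusted p = 0.871).

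Ticam1 encodes TRIF, the adaptor of TLR3 and of the endosomal branch of TLR4 signaling (ENSMUSG00000047123, chromosome 17, minus strand, 56269319 to 56276786). It measured 6.36, 7.001 and 5.78 FPKM in WT NS and 4.36, 4.99 and 4.48 in WT St. TNFR2-/- NS libraries had 7.61, 6.74 and 9.46 FPKM and TNFR2-/- St libraries 6.54, 5.64 and 7.68. Every culture was lower in St than in NS, with ratios of 0.686 to 0.775 in WT and 0.812 to 0.860 in TNFR2-/- cells. The log2 differences of −0.43 ± 0.14 in WT (adjusted p = 0.0661) and −0.24 ± 0.14 in TNFR2-/- cells (adjusted p = 0.242) were not called. With culture as a replicate block they had adjusted p-values of 0.00218 and 0.0160, but remained below 1.5-fold. NS and St libraries did not overlap for 6 of 6 tested members in WT cells and 4 of 6 in TNFR2-/- cells, where 37.7% and 37.3% of all genes did not overlap.

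The remaining 4 receptors did not pass the filter. Tlr1, a partner of TLR2 (ENSMUSG00000044827, chromosome 5), had 0 to 1 reads per library except for 3 in TNFR2-/- St replicate 5, and 8 reads over all 12 libraries. Tlr6, the other partner (ENSMUSG00000051498, chromosome 5), had 0 to 7 reads per library and 27 in all. Of the 100-base sequences in the transcripts of each, 7.89% of those of Tlr1 and 7.09% of those of Tlr6 were shared between both genes, so their reads could be split. Tlr7, the receptor for single-stranded RNA (ENSMUSG00000044583, chromosome X), had 1 to 7 reads per library and 38 in all. Tlr5, the flagellin receptor (ENSMUSG00000079164, chromosome 1), had 3, 3 and 2 reads in WT NS, 3, 3 and 0 in WT St, 2, 4 and 14 in TNFR2-/- NS and 6, 9 and 6 in TNFR2-/- St. A count of 0 still allows up to 3 reads and the counts above 0 were small, so no fold change is given for these 4. Only a large change in them could have been seen at this depth. The Tlr5 values did not overlap between the St groups, as held for 32.7% of all genes tested. With no filter on low values, none of the 4 was called in any comparison. The lowest adjusted p in limma was 0.315, for Tlr5 between the St groups. That fit cannot decide whether they changed. The amount added to FPKM before taking log2 exceeded their mean FPKM in every group and shrank any difference. For Tlr5, mean FPKM of 0.0559 in TNFR2-/- St and 0.0158 in WT St gave a log2 difference of only 0.108.

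The response to stimulation was then compared between genotypes. The interaction, the log2 difference of St from NS in TNFR2-/- minus that in WT, was called for no member, where 0.00553% of all genes were called, a single gene of 18081. The estimate was above 0 for all 6, although it fell below 0 under at least 1 alternative for Tlr2, Tlr4, Myd88 and Cd14. It ran from 0.07 ± 0.37 for Cd14 (95% interval −0.74 to 0.89, adjusted p = 0.987) to 0.57 ± 0.31 for Tlr2 (−0.11 to 1.25, adjusted p = 0.702). For Tlr3 it was 0.38 ± 0.36 (−0.42 to 1.17, adjusted p = 0.863). Without the pairing of cultures limma gave no member an unadjusted p below 0.05, which 1437 of the 18081 genes had. With culture as a replicate block the Tlr3 interaction was 0.38 ± 0.10 (95% interval 0.13 to 0.62), with an unadjusted p of 0.00890 and an adjusted p of 0.130 in limma. By culture, the Tlr3 log2 changes were 1.04, 1.04 and 1.03 in WT and 1.19, 1.44 and 1.61 in TNFR2-/- cells, which did not overlap. On this log2 scale the culture changes of Tlr2 and of Ticam1 did not overlap between genotypes either. For Tlr2, however, the culture ratios of FPKM did overlap, at 95.6 to 146 in WT and 84.1 to 174 in TNFR2-/- cells. The separation of Tlr2 therefore depended on the amount added to FPKM before taking log2. The share of all genes whose culture changes did not overlap between genotypes was not computed. In the fit with the block, Tlr2 stood at 0.57 ± 0.26 (−0.05 to 1.18, adjusted p = 0.263), and the other 4 had adjusted p-values of 0.262 to 0.914.

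Direct comparison of the genotypes gave higher values in libraries labeled TNFR2-/- for all 6 tested members in both conditions. In NS none was called, where 3.27% of all genes were. The differences ran from 0.23 ± 0.22 for Tlr2 (adjusted p = 0.525) to 0.77 ± 0.26 for Cd14 (adjusted p = 0.0812), with Tlr4 at 0.75 ± 0.24 (adjusted p = 0.0662) and a ratio of mean FPKM of 3.11. Tlr2, Tlr4 and Myd88 did not overlap between the NS groups, which held for 34.2% of all genes. At an unadjusted p below 0.05 in limma stood Tlr3, Tlr4, Cd14 and Myd88, as did 5452 of the 18081 genes tested.

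In St, Tlr3 was called, against 2.18% of all genes. Its log2 difference was 1.09 ± 0.25 (adjusted p = 0.0406, ratio of means 2.15). The other 5 were not called, with log2 differences of 0.79 ± 0.22 for Tlr2 (adjusted p = 0.0575), 0.86 ± 0.24 for Tlr4 (0.0583), 0.47 ± 0.14 for Ticam1 (0.0718, and below 1.5-fold), 0.84 ± 0.26 for Cd14 (0.0783) and 0.80 ± 0.28 for Myd88 (0.0995). The St groups did not overlap for any of the 6, which held for 32.7% of all genes. The ratio of mean FPKM was highest for Tlr4 at 4.26, a gene with 24 to 32 reads in WT St and 71 to 167 in TNFR2-/- St libraries. The median log2 difference over the 6 was 0.68 in NS and 0.82 in St, against 0.04 and −0.00337 over all genes. The Tlr3 call was lost under 12 of 27 alternatives, with log2 differences of 0.78 to 1.28 and adjusted p-values of 0.00486 to 0.153. It was lost without both libraries of TNFR2-/- culture 5 (0.88, adjusted p = 0.0988) and without both of WT culture 3 (0.94, adjusted p = 0.153).

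**Figure D4:**
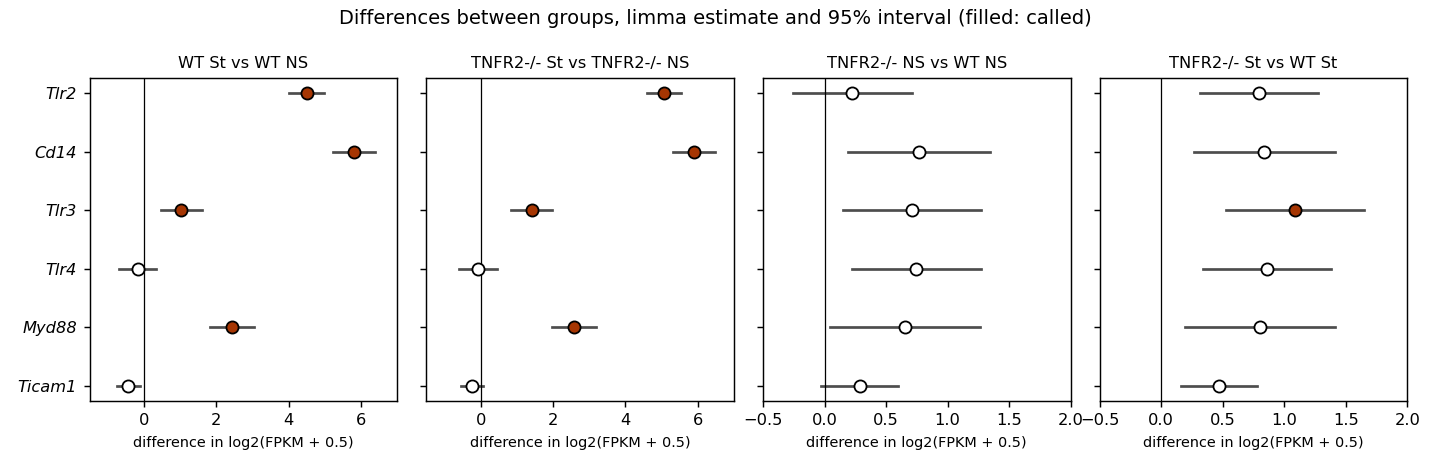
Difference between groups in log2(FPKM + 0.5) for the 6 tested members (points, limma estimates; lines, 95% intervals; filled points, called), with a wider horizontal axis in the pair of stimulation panels. Tlr2, Cd14, Tlr3 and Myd88 were called after stimulation in both genotypes and Tlr3 alone between the St groups, while all estimates between genotypes lie above 0.

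Astrocyte markers and mural and fibroblast markers moved with these genotype differences, in opposite directions. All 8 astrocyte markers were higher in libraries labeled TNFR2-/- in NS (2 called) and in St (1 called), with a median log2 difference of 0.88 and 0.80. Their summed reads ranged from 23985 to 31590 for WT NS and from 25893 to 29627 for WT St, against 41472 to 85227 (NS) and 42438 to 76867 (St) under the TNFR2-/- label. None of the 8 was at 0 in any library. Mural and fibroblast markers were lower under the TNFR2-/- label, with summed reads of 256 to 334 in NS and 179 to 284 in St, against 350 to 899 and 381 to 1267 for WT, and none of their 7 tested genes was called. Other marker lists had genotype calls too, all lower under the TNFR2-/- label. In St these were 2 of 7 OPC markers and 1 of 5 tested endothelial markers. In NS it was the 1 marker tested from 5 of T, B and NK cells. The highest astrocyte sums came from TNFR2-/- culture 5, where Gfap, an astrocyte filament gene, had 10491 reads in NS and 10010 in St, against 251 to 1926 in the other 10 libraries. That culture also had the highest FPKM of Tlr3, Tlr4, Myd88 and Ticam1 in both conditions and of Tlr2 in St, but the lowest TNFR2-/- values of Cd14 in both conditions and of Tlr2 in NS. WT culture 3 had the lowest astrocyte sums and, in both conditions, the lowest Tlr2, Tlr3 and Myd88 of the WT libraries, but the highest Ticam1. Its Cd14 and Tlr4 were the lowest in NS and intermediate in St. The part of any of these cell types in the genotype differences was not tested. After stimulation the astrocyte list had a median log2 difference of −0.06 in WT and −0.03 in TNFR2-/- cells, with none of the 8 called higher and Fgfr3 called lower. The markers did not move together: 3 of the 8 estimates were above 0 in WT and 4 in TNFR2-/- cells. Aqp4 and Gfap had higher FPKM in St in every culture. Gfap measured 11.8, 6.23 and 12.5 FPKM in WT NS and 23.3, 14.1 and 22.2 in WT St. The 14 microglia markers with at most 9 reads did not pass the filter, and of the other 3, Cd68 was called higher in TNFR2-/- St than NS (0.92 ± 0.17, adjusted p = 0.00297). Among neuron markers, Tubb3 rose in both genotypes (3.06 and 3.18) and Snap25 fell (−0.97 and −0.94), with the other 5 not called. Of the 7 tested mural and fibroblast markers, 2 were called higher after stimulation in each genotype and 1 lower in TNFR2-/- cells. Of 5 tested endothelial markers, 1 was called higher, in TNFR2-/- cells.

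The rest of the pathway was followed through 6 lists of genes, chosen with earlier results of these data known. Beside the counts below, stimulation gave calls for 8.54% of all genes tested in WT and 11.7% in TNFR2-/- cells. Between genotypes 3.27% were called in NS and 2.18% in St. Other receptors and accessory proteins gained no call upward after stimulation among 9 tested of 15. In TNFR2-/- cells Tril, an accessory protein of TLR3 and TLR4, fell by 0.67 ± 0.16 (adjusted p = 0.0128), and Lrrc32 fell by 1.01 ± 0.30 (adjusted p = 0.0288). Tril was also higher in libraries labeled TNFR2-/- in NS (0.81 ± 0.16, adjusted p = 0.02001) and St (0.69 ± 0.16, adjusted p = 0.0424). Of 3 tested TIR adaptors out of 4, Tirap, which bridges TLR2 and TLR4 to MYD88, rose in WT (1.02 ± 0.15, adjusted p = 7.01e-04) and in TNFR2-/- cells (0.80 ± 0.15, adjusted p = 0.00262).

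Among 22 kinases and ubiquitin ligases, 4 rose and 1 fell in each genotype. The MAP kinase kinase kinase Map3k8 rose by 2.14 ± 0.19 in WT and 2.72 ± 0.19 in TNFR2-/- cells, Ripk1, a kinase that TRIF can recruit, by 2.16 ± 0.10 and 2.10 ± 0.10, and the MYD88-recruited kinase Irak2 by 1.92 ± 0.26 and 2.63 ± 0.26. Tbk1 was the fourth, and Peli3 fell by 0.84 ± 0.17 and 0.68 ± 0.17. Between the NS groups, Irak4 and Tab1 were higher in libraries labeled TNFR2-/-. Of 6 transcription factors, 1 was called lower under the TNFR2-/- label in NS and 1 higher in St. After stimulation 5 of the 6 rose in each genotype. Irf7 rose by 2.39 ± 0.21 in WT and 3.39 ± 0.21 in TNFR2-/- cells, Irf5 by 2.24 ± 0.24 and 2.74 ± 0.24, and Nfkb1 by 1.87 ± 0.13 and 2.38 ± 0.13, with Rel and Rela the other two.

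Negative regulators of the pathway gave 7 calls among 9 tested in WT and 6 in TNFR2-/- cells, all upward, from a list of 11. Socs1, a suppressor of cytokine receptor signaling, rose by 5.69 ± 0.16 in WT and 6.26 ± 0.16 in TNFR2-/- cells, Tnfaip3, which encodes the ubiquitin-editing enzyme A20, by 4.02 ± 0.19 and 4.43 ± 0.19, the NF-κB inhibitor Nfkbia by 2.70 ± 0.11 and 3.27 ± 0.11, and Atf3 by 2.45 ± 0.22 and 3.45 ± 0.22. The list of IL-1 family receptors also held Il1rn, which encodes the IL-1 receptor antagonist. Of 4 tested genes out of the 6 in that list, 2 rose in WT and 3 in TNFR2-/- cells. Between the NS groups, 1 of the 4 was called lower under the TNFR2-/- label. Il1r1, the receptor for the IL1β of the cocktail, rose by 1.43 ± 0.29 in WT and 1.55 ± 0.29 in TNFR2-/- cells, and was higher in libraries labeled TNFR2-/- both in NS (1.09 ± 0.29, adjusted p = 0.0417) and in St (1.21 ± 0.29, adjusted p = 0.0440). After stimulation the median log2 difference was 1.31 in WT and 1.87 in TNFR2-/- cells for the transcription factors, 2.06 and 2.27 for the negative regulators, and 0.87 and 1.15 for the IL-1 receptor list. It was −0.01 and 0.02 for the kinases and ligases, −0.05 and −0.14 for the adaptors, and −0.12 and −0.07 for the other receptors.

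**Figure D5:**
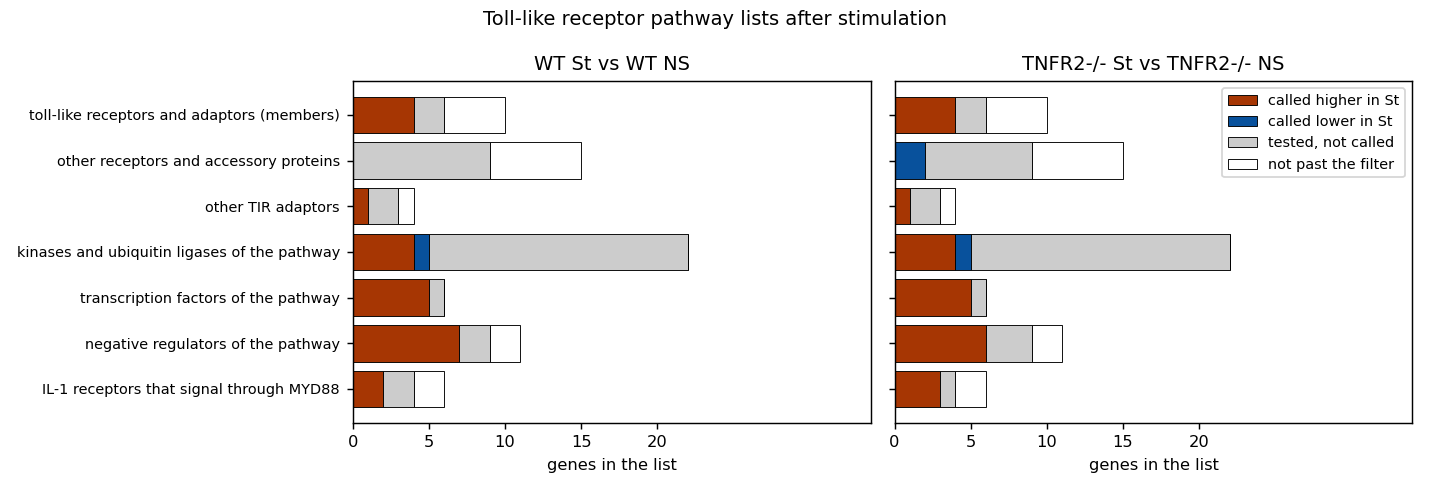
Number of genes (horizontal axis) called higher, called lower, tested but not called, or not past the filter after stimulation, for the 10 members and 6 lists of the pathway, in WT (left) and TNFR2-/- cells (right). Most tested transcription factors and negative regulators were called higher, and none of the other receptors was.

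Finally, the genes with the most similar profile over the 12 libraries were found for the 4 called members among 13553 genes that averaged 1 FPKM or more, by the root mean square difference of centered log2(FPKM + 0.5). For Tlr2 these were H2-Q4 (0.186) and Ripk2 (0.196), for Cd14 Bcl3 (0.325) and Tnfaip2 (0.371), for Myd88 Pyhin1 (0.201) and S1pr3 (0.217), and for Tlr3 Arhgef17 (0.153) and Lgals3bp (0.159). The difference for Cd14 was larger than for the other 3 members. All libraries are shared between the profiles, so this likeness is a description.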

How the data were processed

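RNA from 12 libraries was analyzed. The deposited values are FPKM, which the authors made from read pairs per gene: reads were trimmed with Trim Galore, aligned to GRCm38 with an Ensembl annotation, counted with STAR and normalized with edgeR. Symbols used by more than 1 entry (99 symbols) were left out. Both tables divide a gene by the same number, so they entered 1 fit. Whole reads were recovered for each of the 26636 genes above 0 in 2 or more libraries (within 0.02 of a read). The pathway and marker lists, like the 10 members, were chosen with earlier results of these data known. The 18081 genes that averaged 0.1 FPKM or more were fitted as log2(FPKM + 0.5) by limma (3.58.1, R 4.3.3) with 1 mean for each of 4 groups and a mean-dependent prior, two-sided, with Benjamini-Hochberg adjustment over all of them. limma was tested on simulated data. Named pathway genes were those called in at least 1 comparison, up to the 4 with the largest difference. Nothing in the labels says that replicates were separate cultures, so p-values cover the spread between these libraries. NS and St libraries of 1 genotype with the same number deviated together (r = 0.338 to 0.649 over 13554 genes, 6 pairs), against −0.0553 to 0.204 for the same number across genotypes (4 pairs). Genes were positioned with GENCODE M21. Intervals of reads cover counting error only. Alternatives covered the pseudocount, filter, scaling, prior, groups in the fit, voom on recovered reads, replicate blocks and each library in turn. One marker gene is not reported here, and protein sequences were not used here.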

Additional observations from a re-analysis of the deposited data

How the results depend on the processing

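No member changed direction between groups in any comparison it was called in, and the 4 members called in TNFR2-/- St against NS stayed called under all 27 alternatives. In WT St against NS, 3 or 4 members were called when each library was left out, Tlr3 being the one lost. The interaction gave 0 members under all 26 alternatives; with the compared groups alone it could not be fitted. In the NS comparison of the genotypes 0 members were called, 0 to 2 when each library was left out (2 without TNFR2-/- NS replicate 4, Tlr3 and Tlr4; 1 without TNFR2-/- St replicate 5, Tlr4), and 1, Cd14, without both libraries of TNFR2-/- culture 5. The St comparison of the genotypes, with 1 member called, was the least stable. It gave 2 with a pseudocount of 0.1 FPKM (Tlr4 added), 2 with a filter at a mean of 1 FPKM (Tlr2 added), 4 with voom on recovered reads (Tlr2, Tlr4 and Cd14 added) and 2 with reads per annotated exon kilobase (Cd14 added). It gave 0 with no filter on low values, 0 without the mean-dependent prior, 0 with the spread of the compared groups alone, and 0 without both libraries of TNFR2-/- culture 5 or of WT culture 3. Leaving out each library gave 0 to 3. It was 0 without WT NS replicate 4, WT St replicate 2, 3 or 4, TNFR2-/- NS replicate 2 and TNFR2-/- St replicate 2 or 5, 2 without TNFR2-/- NS replicate 4 or TNFR2-/- St replicate 4 (Tlr4 added), and 3 without TNFR2-/- NS replicate 5 (Tlr4 and Cd14 added). A replicate block within genotype left the counts of 4 and 4 members, and of 0 for the interaction, unchanged. A replicate block across genotypes, where the numbers do not pair the libraries, gave 2 between the St groups (Tlr4 added) and a Tlr2 difference of −0.003 between the NS groups. Another scaling moved the median of all genes in TNFR2-/- St against NS from −0.11 to −0.02. The reasons for these shifts were not tested beyond how each alternative is built. The alternatives without 2 libraries of a culture, with reads per exon kilobase and with calls limited to a mean of 1 FPKM were chosen after seeing the data. Depth limits Tlr1, Tlr5, Tlr6 and Tlr7.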
